A study of Mus musculus with 7 samples.

Results

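Oligodendrocyte progenitor cells (OPCs) of ventral and of dorsal forebrain origin were compared in the adult cortex of mice in which no cells had been ablated. The comparison took the cells that the authors annotated as OPC in 2 libraries, 121 in control vOLCs (ventrally derived oligodendrocyte lineage cells) and 853 in control dOLCs (dorsally derived ones), 974 of the 9291 kept cells of the series. They are called control vOPCs and control dOPCs here. Cells annotated as cycling OPCs, 3 and 17 in the same libraries, were not among them.

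OPCs are the proliferating glial cells from which oligodendrocytes form in development and throughout adult life. They carry the PDGF receptor alpha and the proteoglycan NG2, receive synaptic input from neurons and, once they begin to differentiate, switch on the genes of the myelin sheath. In the forebrain they arise in successive waves, first from ventral progenitor domains and later from the dorsal, Emx1-expressing progenitors of the cortex. In the adult cortex the cells of both origins lie intermingled, and the study found the large majority to be of dorsal origin.

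Both libraries came from Emx1-Cre:Sox10-GFP-TdTom mice at P90 (11 to 14 weeks) on a mixed C57BL/6-B6CBA background. In these mice the Sox10 promoter drives GFP until Cre removes it and turns on tdTomato, and Emx1 directs Cre to the dorsal lineage, so that tdTomato-positive cells were sorted as dorsal and GFP-positive cells as ventral. A cell of dorsal origin that escaped recombination would be sorted with the ventral cells. Motor and cingulate cortex are named as the tissue by the labels, whereas the study's text names the neocortex and, for the dissection, the CC (corpus callosum). The ectopic library was used to set values beside the others and to assign genes to a stage. It held 330 OPCs among GFP-positive cells (ectopic vOLCs). The mice of this library carried Sox10-GFP-DTA besides the same Cre and reporter, so that diphtheria toxin A ablated dorsal cells. Per the labels, cells of 4 control mice and of 2 ablated mice were used, without a mark in the files of which cell came from which mouse, and each population was a single library. There was therefore no replicate, and no test between the origins was possible. Every interval printed below is a 95% interval that covers counting error and leaves out variation from mouse to mouse or library to library.

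Levels are UMIs (unique molecular identifiers, each standing for a captured transcript) summed over the OPCs of a library and scaled to a total of 1000000 (CPM). Differences are log2 ratios of CPM, control vOPCs over control dOPCs, so that 1 stands for a 2-fold higher and −1 for a 2-fold lower level in control vOPCs. Control vOPCs held 394731 UMIs and control dOPCs 2625452, with a median of 3454 and 2795 UMIs and of 1802 and 1589 genes per cell. The median mitochondrial share was 4.56% and 4.39%. No cell barcode was shared between the OPCs of the libraries, while 9 were shared between all kept cells of the control libraries. Emx1 itself had 0 UMIs in control vOPCs, which allows up to 7.60 CPM when 3 counts are taken as the limit for 0, and 2 in control dOPCs, so that its RNA does not check the sort in the adult. Sox10 stood at 489 and 529 CPM (log2 ratio −0.11, interval −0.34 to 0.11). Xist was at 3217 and 3208 CPM, and 4 Y-linked genes had 0 UMIs in all kept cells of both control libraries, although the study states that both sexes were used, without giving the sex of these mice.

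The label OPC held in both libraries. All 19 listed OPC markers passed the filter, which asked for 50 or more UMIs over the pair of libraries and for detection in 10% or more of the OPCs of either library. They took a median of 2.19% of the UMIs of a control vOPC (range 1.29 to 3.41) and 1.90% of those of a control dOPC (0.437 to 3.15), against 0.0199% and 0.0359% in oligodendrocytes of the same libraries. Microglia markers took 0.0114% and 0.00807% of all OPC UMIs, with 6 of 14 at 0 in both, mural and fibroblast markers 0.00101% and 0.000609%, with 12 of 17 at 0, and endothelial markers 0.148% and 0.104%, with 5 of 14 at 0. The endothelial sum was carried by Bsg (1360.4 and 972 CPM), which is not restricted to vessels. Neuron markers took 0.176% and 0.158%, and astrocyte markers 0.654% and 0.588%. OPCs made up 121 of 925 kept cells in control vOLCs (13.1%, interval 11.0 to 15.4) and 853 of 5804 in control dOLCs (14.7%, 13.8 to 15.6), and these intervals overlapped.

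Of 5863 genes past the filter, 140 were at least 2-fold higher in control vOPCs (2.39%) and 164 at least 2-fold lower (2.80%). The counting interval lay wholly past 2-fold for 9 genes on the higher and 4 on the lower side, and lay above 0 for 698 genes (11.9%) and below 0 for 653 (11.1%). The median log2 ratio of all genes was 0.03. Control vOPCs had a median of 26 UMIs per gene and control dOPCs 171, and 75 of the 304 genes past 2-fold had fewer than 10 UMIs in control vOPCs, so that the number of control vOPCs set the precision. The split between the sides moved with scaling: with TMM factors, which centre on the bulk of genes, 99 genes were higher and 220 lower.

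**Figure D1:**
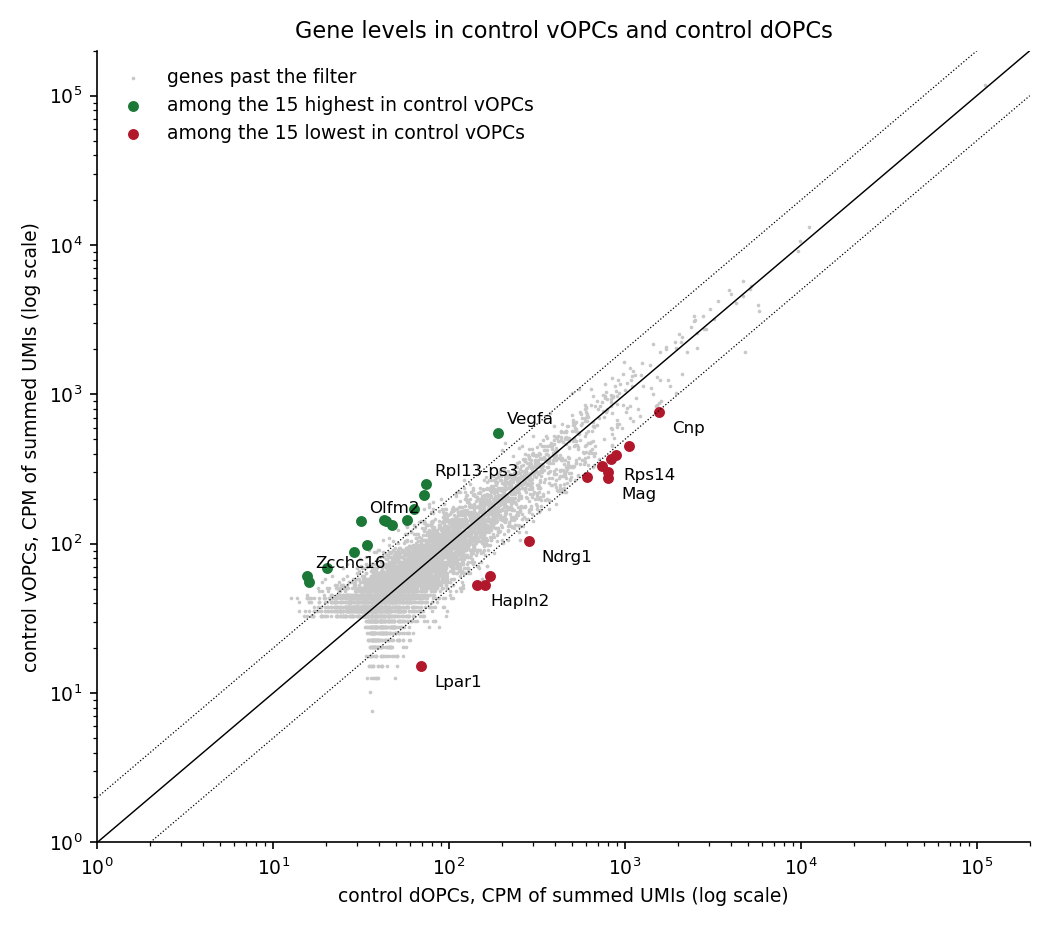
Summed levels of genes past the filter in control dOPCs (horizontal) and control vOPCs (vertical), both in CPM on log scales. The solid line marks equal levels and the dotted lines a 2-fold difference. Coloured genes, from the 15 highest (green) and the 15 lowest (red) in control vOPCs, lie outside the dotted lines, with Mag at 276 CPM in control vOPCs against 806 in control dOPCs.

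The genes that stood highest in control vOPCs were ranked by the end of the interval nearest 0. Olfm2, which encodes a secreted olfactomedin glycoprotein, was at 142 CPM in control vOPCs (107 to 184), 31.6 in control dOPCs (25.2 to 39.2) and 49.1 in ectopic OPCs (37.4 to 63.3). Its log2 ratio was 2.17 (1.65 to 2.67), the largest of the 15. A UMI of it was found in 33.9% of control vOPCs and 9.38% of control dOPCs, against 0.508% and 0.371% of oligodendrocytes in the same libraries. With each cell thinned to 1000 UMIs, the OPC shares were 14.9% and 2.34%.

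Vegfa, the growth factor that directs vessel growth, was at 555 CPM in control vOPCs (484 to 633), 190.4 in control dOPCs (174 to 208) and 123 in ectopic OPCs (104 to 145). Its log2 ratio was 1.54 (1.31 to 1.77), and no single cell held more than 14 of its 219 UMIs in control vOPCs. Adm, which encodes the vasodilator peptide adrenomedullin and ranked just after the 15, showed the same order, with 185, 76.9 and 57.4 CPM (log2 ratio 1.27, 0.86 to 1.66). For both genes control vOPCs stood above the OPCs of the other 2 libraries, beyond counting error.

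Ephb3, a receptor for ephrin-B ligands, was at 144 CPM in control vOPCs (109 to 187) and 42.7 in control dOPCs (35.1 to 51.3), a log2 ratio of 1.76. P2ry1, the ADP receptor, was at 68.4 CPM (45.1 to 99.5) and 20.2 CPM (15.1 to 26.4), also 1.76, on 27 and 53 UMIs. Ectopic OPCs stood nearer to control dOPCs for both genes, at 51.6 and 27.4 CPM.

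The other genes named among the 15 were of mixed function. They were Pcdhga12, a clustered protocadherin (log2 ratio 1.70), St3gal5, the GM3 ganglioside synthase (1.57), Zcchc16, a retrotransposon-derived gene (1.96), Tsix, the antisense partner of Xist (1.51), Trmt61a, a tRNA methyltransferase subunit (1.80), Armc8 (1.42), Cog7, a Golgi complex subunit (1.33), Snhg9 (1.61), Rnaset2b (1.53) and Rpl13-ps3 (1.76). Xist did not share the ratio of Tsix, and reads of such overlapping genes are told apart by strand only.

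Of the 15 genes, 11 were also higher in the oligodendrocytes of the ventral library, with intervals above 0, against 14.3% of all genes past the filter in that cell type. Rpl13-ps3 had log2 ratios of 1.76 in OPCs and 1.75 in oligodendrocytes, St3gal5 1.57 and 1.42, Tsix 1.51 and 1.19, and Pcdhga12 1.70 and 1.03. The other 4 were Olfm2, Ephb3, Zcchc16 and P2ry1, which were close to absent from oligodendrocytes: Olfm2 had 4 UMIs in 788 ventral oligodendrocytes and 18 in 4858 dorsal ones, Ephb3 4 and 23, Zcchc16 0 and 3, and P2ry1 0 and 8. Vegfa had a smaller ratio in oligodendrocytes than in OPCs, at 0.58 (0.25 to 0.90).

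**Figure D2:**
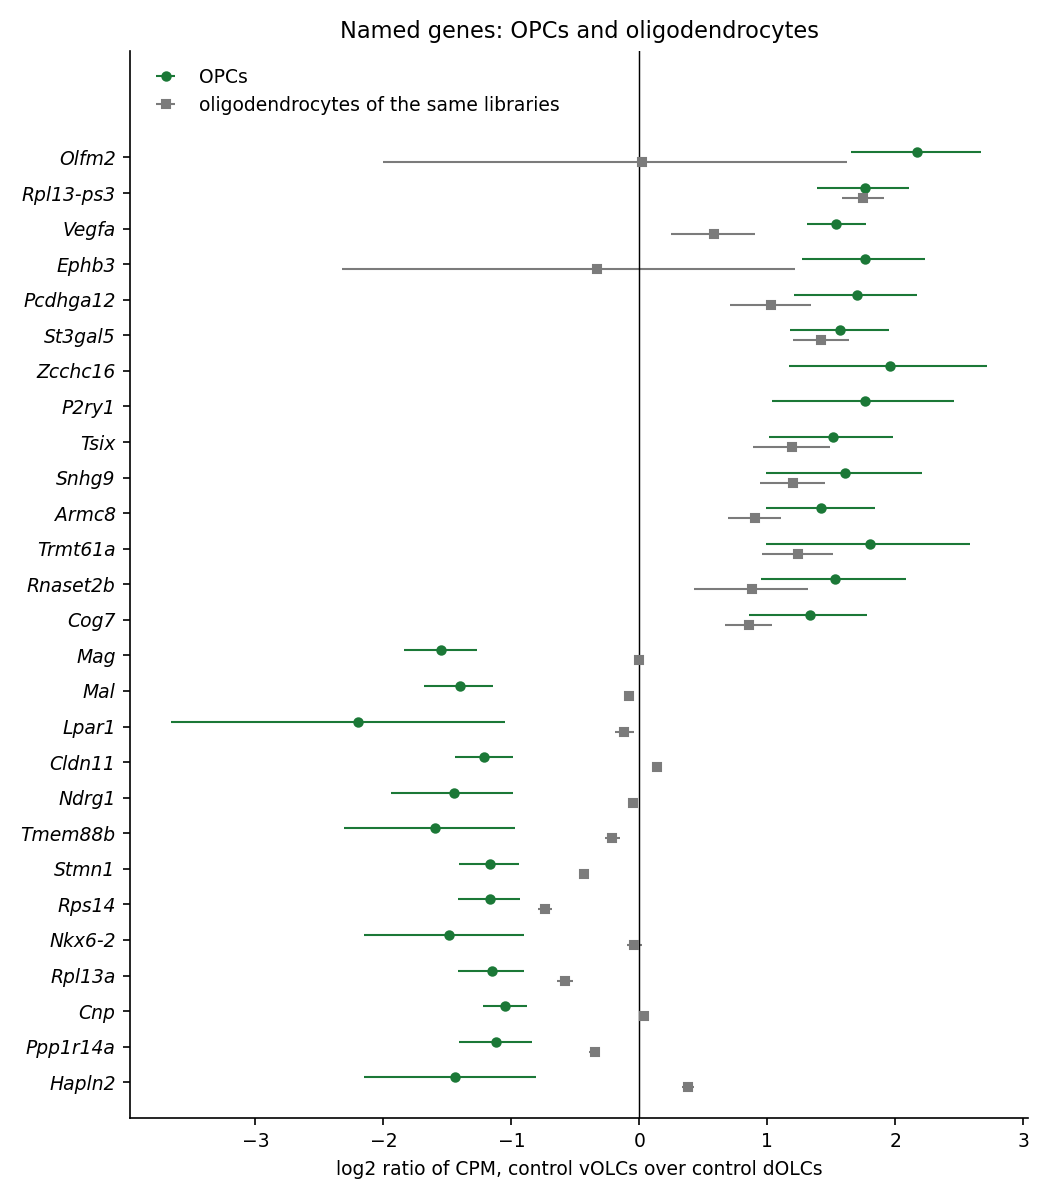
Log2 ratios of CPM, control vOLCs over control dOLCs, for genes among the 15 highest and the 15 lowest in OPCs (green circles) and in oligodendrocytes of the same libraries (grey squares), with 95% counting intervals. Genes with 0 UMIs in ventral oligodendrocytes have no square. Cldn11 lies at −1.21 in OPCs and 0.14 in oligodendrocytes, while Rpl13-ps3 lies at 1.76 and 1.75.

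Some of these symbols name near-identical copies. Over an aligned stretch of 249 bases Rpl13-ps3 was 98.0% identical to Rpl13, which had a log2 ratio of −0.33 (−0.44 to −0.23) in OPCs. Their summed UMIs gave −0.21 (−0.31 to −0.11) in OPCs and −0.21 (−0.26 to −0.17) in oligodendrocytes. In both cell types the summed value thus lay on the other side of 0 from that of Rpl13-ps3. How reads were split between the pair cannot be told from counts. Rnaset2b was 99.1% identical to Rnaset2a over 2456 bases, and here both copies were higher, with a summed log2 ratio of 1.34 (1.01 to 1.67) in OPCs and 1.05 (0.83 to 1.27) in oligodendrocytes.

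The genes that stood lowest in control vOPCs were mostly genes of mature oligodendrocytes. Mag, the myelin-associated glycoprotein, was at 276 CPM in control vOPCs (227 to 333), 806 in control dOPCs (772 to 841) and 301 in ectopic OPCs (271 to 334). Its log2 ratio was −1.55 (−1.84 to −1.27). Both GFP-sorted libraries thus held a lower level of Mag in OPCs than the tdTomato-sorted library.

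Control dOPCs were also the highest of the 3 libraries for Mal (301, 797 and 263 CPM, log2 ratio −1.40), Cldn11, the tight junction protein of myelin (453, 1050.5 and 460.0 CPM, −1.21), and Cnp (760.0, 1570.0 and 861 CPM, −1.05). Lpar1, a lysophosphatidic acid receptor of maturing oligodendrocytes, had a log2 ratio of −2.20 (−3.66 to −1.05), but on 6 UMIs in control vOPCs against 183. Ndrg1 (−1.45), Tmem88b (−1.60), Nkx6-2, a homeobox factor of differentiating oligodendrocytes (−1.49), Ppp1r14a (−1.12) and Hapln2, a link protein at nodes of Ranvier (−1.44), were further genes of that stage. Without the 10% of OPCs of each library with the highest share of mature oligodendrocyte UMIs, the log2 ratios were −1.31 for Lpar1, −0.94 for Mag, −0.86 for Mal, −0.87 for Cldn11, −0.75 for Cnp and −0.81 for Hapln2. Further genes on the low side were Stmn1, which binds tubulin (−1.17), and the ribosomal protein genes Rps14 (−1.17) and Rpl13a (−1.15). Stmn1 was higher in oligodendrocytes than in OPCs, at 1964 against 395 CPM in control vOLCs and 2645 against 890.1 in control dOLCs. In the same order, Rps14 was at 698 against 369.9 and 1165 against 833 CPM, and Rpl13a at 642 against 332 and 960.2 against 739.

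Over the whole list, 37 of 38 mature oligodendrocyte genes passed the filter. Of these, 34 had intervals below 0 and none above, against 11.1% of all genes below 0. At least 2-fold lower were 14, against 2.80% of all genes. Their median log2 ratio was −0.93, against 0.03 for all genes. Members ranged from −1.60 for Tmem88b to 0.10 for Pllp, which was at 2245 and 2093 CPM. Mbp (−0.84) and Mobp (−0.87) lay near the median, as did Mog, at 220.4 and 439.5 CPM. Summed, the list made up 1.81% of the UMIs of control vOPCs, 3.20% of those of control dOPCs and 1.73% of those of ectopic OPCs, and the log2 ratio between the controls was −0.82 (−0.86 to −0.79).

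The difference was spread over cells and was larger in a tail of control dOPCs. The list took a median of 1.83% of the UMIs of a control vOPC, with a 10th to 90th percentile of 1.44 to 2.20, and 2.56% of those of a control dOPC, with 2.07 to 3.39. Of 853 control dOPCs, 839 (98.4%) lay above the median control vOPC. The highest control vOPC was at 2.90%, whereas 213 control dOPCs (25.0%) lay above it, 50 of them (5.86%) over 5% and the highest at 13.4%. Without the 10% of OPCs of each library with the highest share, the summed log2 ratio was −0.49, and without the cells of the 6% highest doublet scores in each library it was −0.50. Both values were smaller and kept the direction. The 10% were picked by the share that was then compared, so that the smaller ratio there followed in part from the choice of cells.

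**Figure D3:**
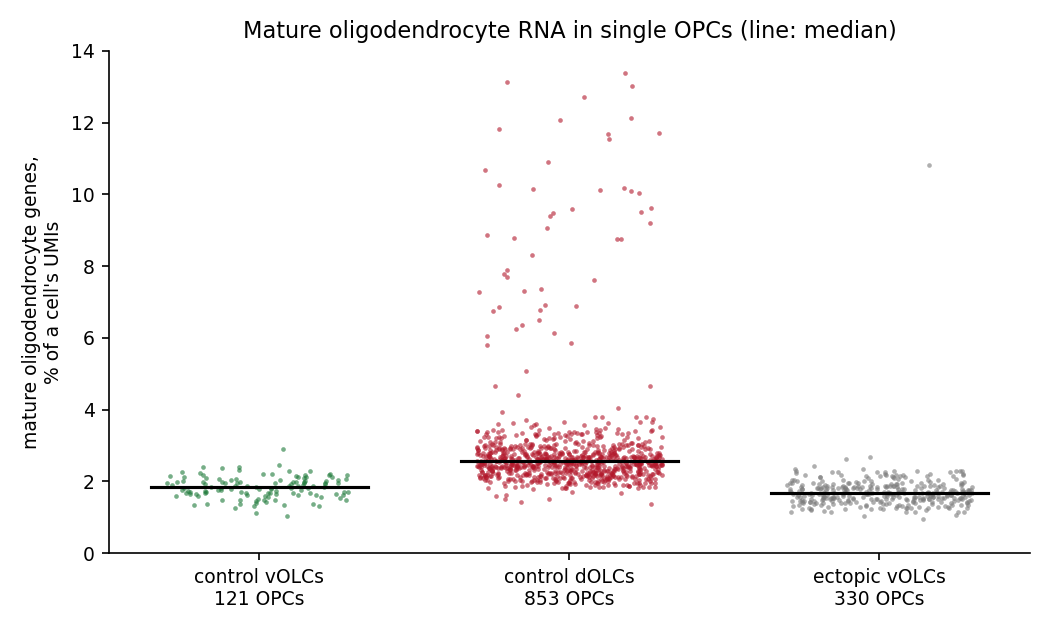
Share of the UMIs of single OPCs that came from 38 mature oligodendrocyte genes, in percent, with a point for each cell and a black line at the median of each library. Medians were 1.83% in control vOLCs, 2.56% in control dOLCs and 1.67% in ectopic vOLCs, and the cells above 5% are nearly all in control dOLCs (50 cells, against 0 and 1).

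In the oligodendrocytes of the same libraries the order was the opposite one. There the list took 16.3% of UMIs in control vOLCs and 14.5% in control dOLCs, a log2 ratio of 0.17 (0.17 to 0.18), and the OPC markers took 0.0246% and 0.0405%, a log2 ratio of −0.72 (−0.81 to −0.62). In each library, then, the genes of the cell type not being looked at were present at a low level, and in both cell types that level was higher in control dOLCs. Of the 34 mature genes with intervals below 0 in OPCs, 18 had intervals above 0 and 11 below 0 in oligodendrocytes, against 14.3% and 23.3% of all genes. The part of RNA from other cells in this difference was not tested.

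Stage also marked the genes past 2-fold, taking the stage of each gene from the ectopic library, which neither side of the comparison used. Of the 164 genes lower in control vOPCs, 56 (34.1%) were at least 4-fold higher in oligodendrocytes than in OPCs of the ectopic library, against 3.12% of all genes past the filter. Of the 140 higher genes, 57 (40.7%) were at least 4-fold higher in OPCs, against 18.7% of all genes.

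The OPC markers themselves stood higher in control vOPCs by a smaller amount. Of the 19, 12 had intervals above 0, against 11.9% of all genes, 1 had an interval below 0, and the median log2 ratio was 0.23. Pdgfra was at 2174 CPM in control vOPCs (2031 to 2324) and 1450.0 in control dOPCs (1404 to 1497), a log2 ratio of 0.58. Cspg4, which encodes NG2, was at 811 and 597 CPM (0.44), Ptprz1 at 3737 and 3048 CPM (0.29) and C1ql1 at 3103 and 2474 CPM (0.33). Vcan (−0.07), Lhfpl3 (−0.04), Rlbp1 (−0.05) and Pcdh15 (0.07) had intervals that included 0.

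Xylt1 and Fabp7 stood apart from the other markers, on opposite sides. Xylt1, which starts the sugar chains of proteoglycans, was at 1018 CPM (921 to 1123), 502 (475 to 529.9) and, in ectopic OPCs, 613 (569.6 to 659), a log2 ratio of 1.02 between the controls. Fabp7, the brain fatty acid binding protein of progenitors, was at 299 CPM (247 to 358), 452 (427 to 479) and 579.8 (538 to 624), a log2 ratio of −0.60. Xylt1 was thus highest, and Fabp7 lowest, in control vOPCs of the 3 libraries.

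Of 40 glutamate and GABA receptor genes, which include the receptors for synaptic input, 15 passed the filter. Of these, 7 had intervals above 0, against 11.9% of all genes, and none below, and their median log2 ratio was 0.48. Gria2, the AMPA receptor subunit that limits calcium entry, was at 1499.8 CPM in control vOPCs (1381 to 1626), 1063 in control dOPCs (1024 to 1103) and 801 in ectopic OPCs (751 to 853), a log2 ratio of 0.50. Gria3 had 0.45 and the GABA-B receptor subunit Gabbr1 0.48. Grid1, the glutamate receptor delta 1, had the largest ratio of the list, at 269 CPM (219.9 to 325) and 121 (108 to 135), a log2 ratio of 1.15. Gabra2, a GABA-A receptor subunit, had 1.10 (0.41 to 1.74) on 27 and 84 UMIs.

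Of 16 potassium channel genes past the filter, 5 had intervals above 0 and 2 below, against 11.9% and 11.1% of all genes, with a median of 0.37. Kcnj16, an inward rectifier, was at 162 and 78.5 CPM (1.05), and its partner Kcnj10 at 372 and 285 CPM (0.39). Hcn2 (−0.73) and Kcna1 (−0.75) were lower in control vOPCs. The list of voltage-gated sodium and calcium channel genes also held the Cacng genes. Of its 11 members past the filter, 2 had intervals above 0, against 11.9% of all genes, and none below. Both were Cacng genes rather than channel pore genes, Cacng7 (0.86) and Cacng4 (0.22), and Cacng4 is also among the OPC markers.

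**Figure D4:**
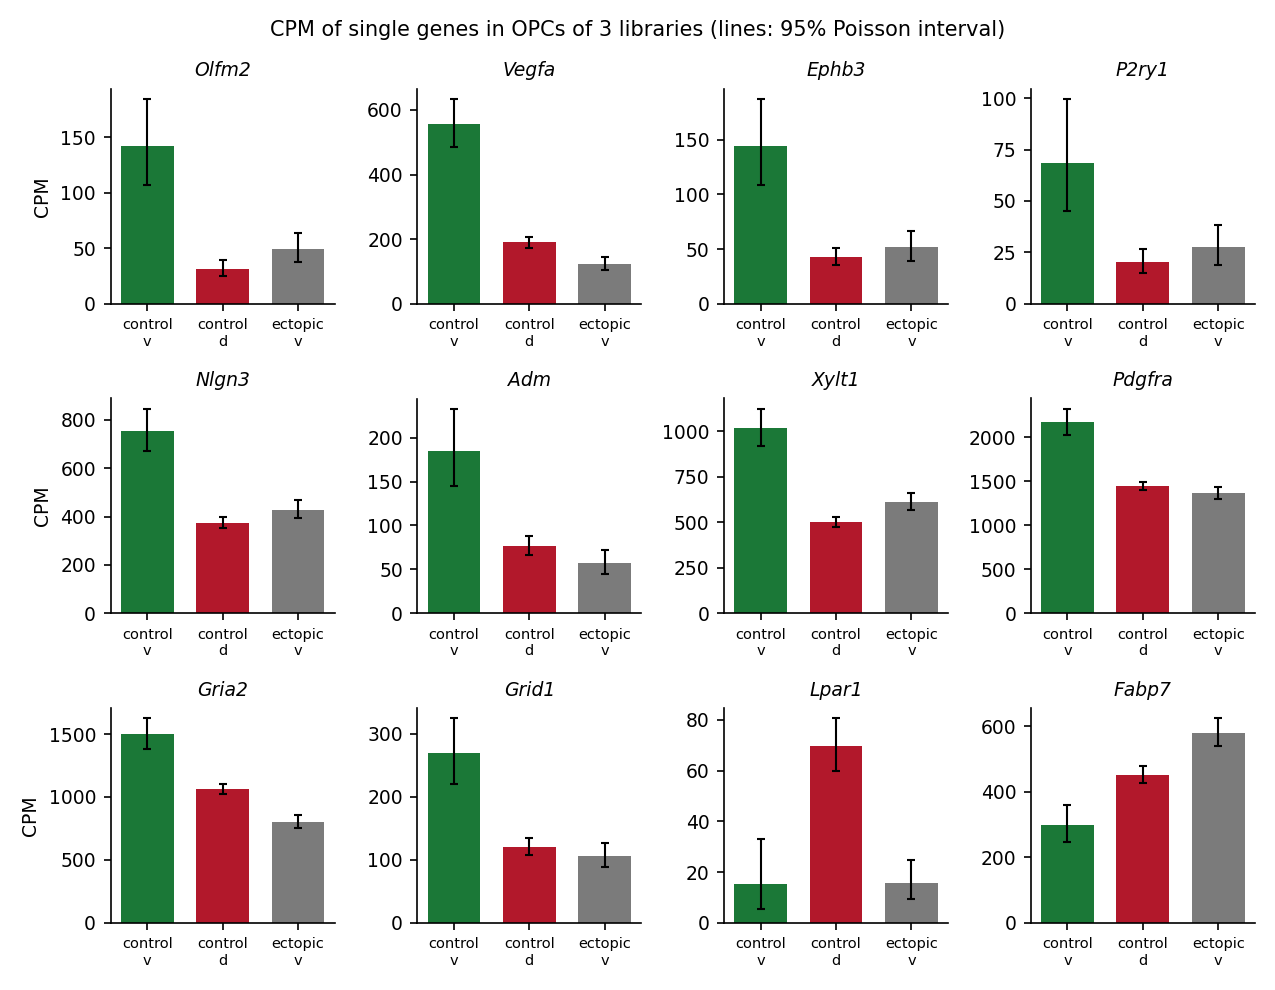
Levels of 12 genes in OPCs of control vOLCs (v, green), control dOLCs (d, red) and ectopic vOLCs (grey), in CPM on axes that start at 0, with 95% Poisson intervals for counting error. The genes from Olfm2 to Grid1 are highest in control vOPCs, as Grid1 with 269 CPM against 121 and 106, whereas Lpar1 (15.2, 69.7 and 15.8) is highest in control dOPCs and Fabp7 in ectopic OPCs.

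Matrix and adhesion genes were higher in control vOPCs in part. Of 48 past the filter, 20 had intervals above 0 and 1 below, against 11.9% and 11.1% of all genes, and the median was 0.29. Among the lecticans, which form the perineuronal matrix with tenascin R, Ncan was at 438 and 249 CPM (0.81, 0.56 to 1.06), Bcan at 2077 and 1714 (0.28) and Vcan, as above, at 856 and 901. Cspg5, the most abundant of the list, was at 5019 and 3907 CPM (0.36), and Tnr, tenascin R, at 975 and 656 (0.57). Nlgn3, a synaptic adhesion protein, was at 755 and 374 CPM (1.01, 0.82 to 1.20). Cntn2, an axoglial contactin of myelinating cells, was lower, at 50.7 and 119.6 CPM (−1.24).

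Of 26 axon guidance genes past the filter, 8 had intervals above 0 and 2 below, against 11.9% and 11.1% of all genes, with a median of 0.27. Ephb3 led the list, followed by Sema5b (122 and 60.6 CPM, 1.01), Robo1 (0.84), Nrp2 (0.74), Epha4 (0.69) and Unc5c (0.62). Unc5b, a netrin receptor, was at 38.0 and 93.3 CPM (−1.30), and the ligand Efnb3 at 98.8 and 170.3 (−0.79).

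Among growth factor ligands and receptors, 25 passed the filter, 6 with intervals above 0 and 3 below, against 11.9% and 11.1% of all genes, and the median was 0.30. Besides Pdgfra and P2ry1, the higher ones were Gpr17, a receptor of committed precursors (0.35), Ntrk3, the neurotrophin-3 receptor (266 and 173 CPM, 0.62), and the insulin-like growth factor binding proteins Igfbp2 (98.8 and 45.7 CPM, 1.11) and Igfbp3 (137 and 73.1 CPM, 0.90). The 3 with intervals below 0, a share near that of all genes, were Lpar1 and the ligands Pdgfa (−1.63) and Fgf1 (−1.64), on 7 and 5 UMIs in control vOPCs.

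The lineage transcription factors had a median log2 ratio of −0.04, with 6 of 29 intervals above 0 and 1, that of Nkx6-2, below, against 11.9% and 11.1% of all genes. Olig1 was at 5730.5 and 4691 CPM (0.29) and Olig2 at 1322 and 1097 (0.27). Tcf7l2, a Wnt effector of committed precursors, had 0.89 (0.30 to 1.45), Etv4 0.60, Tcf4 0.31 and Zeb2 0.30. Of 11 committed precursor genes past the filter, 4 had intervals above 0, against 11.9% of all genes, and none below, with a median of 0.25.

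Genes that pattern the embryonic forebrain were mostly at or near 0 in the adult cells. The filter was passed by 4 of the 26 dorsal patterning genes and 5 of the 30 ventral ones, and 9 and 13 of them had 0 UMIs in both libraries. Of those past the filter, 1 of each list had an interval above 0, against 11.9% of all genes, on the dorsal list Zbtb20 (894 and 743 CPM, 0.27), and none had one below. Pax6 (0.37), Meis2 (0.04) and Gsx1 (0.27) had intervals that included 0.

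Below the filter lay 47 patterning genes, 25 of them with a UMI in either library. Of these 25, 2 had intervals above 0 and 2 below, against 2.39% and 0.907% of the 9038 genes below the filter with a UMI. The 4 rest on few UMIs, and they are named after their values were seen. Dmrta2, a dorsal telencephalic factor, had 1 UMI in control vOPCs, 50 in control dOPCs and 9 in ectopic OPCs, a log2 ratio of −2.91 (−8.24 to −0.37) between the controls. Id4, from the same list, had 7 and 9 UMIs (2.37, 0.71 to 3.96). Foxp2, from the ventral list, had 0 and 36 UMIs and was at least 1.80-fold lower in control vOPCs, taking 3 counts as the limit for 0. Ebf1, also from the ventral list, had 12 and 28 UMIs (1.51, 0.40 to 2.53). Their directions did not follow the lists: in each list, 1 of these genes was higher and 1 lower in control vOPCs.

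**Figure D5:**
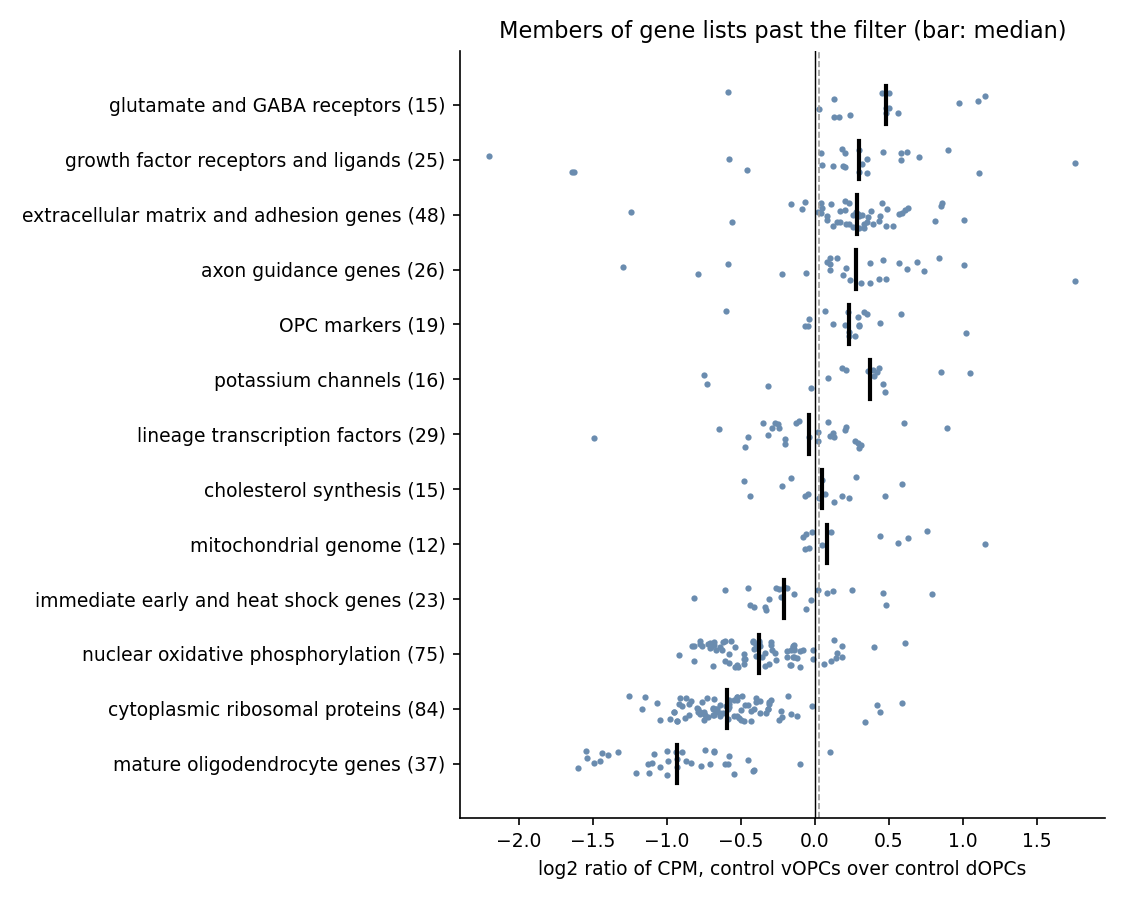
Log2 ratios of CPM, control vOPCs over control dOPCs, of the members of 13 gene lists that passed the filter (number in parentheses), with a point per gene and a black bar at the median. The dashed line marks the median of all genes, 0.03. Medians run from 0.48 for glutamate and GABA receptors to −0.93 for mature oligodendrocyte genes.

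Ribosomal protein genes were lower in control vOPCs almost throughout. Of 84 past the filter, 69 had intervals below 0 and 2 above, against 11.1% and 11.9% of all genes, 5 were at least 2-fold lower, against 2.80%, and the median log2 ratio was −0.60. Their sum was 2.60% of UMIs in control vOPCs, 3.92% in control dOPCs and 4.60% in ectopic OPCs. Rpl36a (106 and 254 CPM, −1.26) and Rps14 (369.9 and 833 CPM) were lowest, and Rpl15 (0.42) was among the 2 with intervals above 0. In oligodendrocytes of the same libraries, 67 of the 69 also had intervals below 0, against 23.3% of all genes, and the median over the list was −0.39. The log2 ratio of the summed list to control dOPCs was −0.59 for control vOPCs and 0.23 for ectopic OPCs.

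The share of ribosomal protein RNA varied between the cells of a library. Its median was 2.53% of a control vOPC's UMIs and 3.31% of a control dOPC's, and 2 of 121 control vOPCs (1.65%) but 136 of 853 control dOPCs (15.9%) and 104 of 330 ectopic OPCs (31.5%) held over 5%. Without the cells over 5%, the median log2 ratio of the list was −0.39.

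Messages of ribosomal protein genes start with a run of pyrimidines, through which their translation follows nutrient signals. The windows from 10 bases before to 20 after the RefSeq start site are shown for 3 of the members lowest in control vOPCs among those that hold the motif CTTTC (in capitals), as a sequence feature that the list did not use and that some of its members hold. The windows are chr7:45128726-45128755 (minus strand), chr7:141447641-141447670 (plus strand) and chr17:27635225-27635254 (minus strand) on GRCm38.p6, each written along its gene.
Rpl13a: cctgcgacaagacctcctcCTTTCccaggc
Rplp2: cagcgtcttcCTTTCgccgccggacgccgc
Rps10: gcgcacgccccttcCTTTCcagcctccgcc
Log2 ratios of these genes were −1.15, −0.93 and −0.87. They are the low end of the 15 members found with the motif, whose ratios ran from −1.15 to 0.42, that of Rpl15. Whether the motif goes with the ratio was not tested. The motif was searched only on the strand that reads as the RNA. It was in the window of 15 of 62 ribosomal protein genes with a start site in the RefSeq table (24.2%). Among genes past the filter it was in that of 168 of 4544 (3.70%). A match describes the letters in this window only.

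Genes of oxidative phosphorylation encoded in the nucleus were lower too. Of 75 past the filter, 42 had intervals below 0 and 1 above, that of Sdhd (0.61), against 11.1% and 11.9% of all genes, with a median of −0.38. Uqcrq (132 and 249 CPM, −0.92), Atp5d (−0.83) and Ndufs5 (−0.82) were lowest, while Atp5b, the most abundant, was at 656 and 659 CPM (−0.01). Of the 42, 33 also had intervals below 0 in oligodendrocytes, against 23.3% of all genes.

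Log2 ratios in OPCs went with transcript length, which was known for 97.4% of genes. Over 5 classes of equal size, from the shortest to the longest transcripts, the median log2 ratio in OPCs was −0.16, −0.00, 0.05, 0.09 and 0.13, and in oligodendrocytes −0.08, 0.02, −0.03, −0.06 and −0.14, where the longest class was the lowest. With the median of the length class taken off, the list median was −0.48 for ribosomal proteins, −0.25 for oxidative phosphorylation, −0.93 for mature oligodendrocyte genes, 0.17 for OPC markers, 0.36 for glutamate and GABA receptors, 0.18 for matrix and adhesion genes and 0.16 for axon guidance genes. The receptor, matrix and guidance lists thus lost part of their median and none changed sign. The part of transcript length in these results was not tested.

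Of 23 immediate early and heat shock genes past the filter, 5 had intervals below 0 and 1 above, against 11.1% and 11.9% of all genes, with a median of −0.21. Hsp90aa1, a chaperone, was at 697 and 1063 CPM (−0.61), Hspa8 at 816 and 1025 (−0.33) and Jund, an immediate early transcription factor, at 162 and 286 (−0.82). Cholesterol synthesis genes had a median of 0.05, and none of the 15 past the filter had an interval off 0. Of 9 cell cycle genes past the filter, 1 had an interval above 0, a share near the 11.9% of all genes, and the cycling cells themselves, 3 of 925 (0.324%, 0.0669 to 0.945) and 17 of 5804 (0.293%, 0.171 to 0.469), were too few to show a difference at this depth.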

How the data were processed

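Droplet-based single-cell RNA sequencing (10x Chromium) covered 3 libraries of sorted cells. The authors deposited raw UMI counts per gene and cell, without normalization, and an annotation of kept cells with library and cluster, from which groups and cell types were taken. The submitters' processing notes name Cell Ranger 2.1.1, Seurat 3, Seurat 4.0 and mm10. The study kept cells of over 200 and under 3000 genes and at most 15% mitochondrial counts. A further 4 samples were not analysed here, and no column of another series was used.

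UMIs were summed over OPCs of each library and scaled to CPM. Oligodendrocytes were the MFOLb and MOL clusters. Genes needed 50 UMIs in both libraries together and a UMI in 10% of cells of one of them. Intervals at 95% are exact: conditional binomial (Clopper-Pearson) for ratios, Clopper-Pearson for shares and Poisson for CPM. They cover counting error only. Ratios against 0 UMIs used 3 counts. No cell was removed as a doublet. Thinning to 1000 UMIs left out 0 cells. With 1 library per origin there was no test.

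The genes named were the 15 highest and 15 lowest by the interval end nearest 0, then members of 31 gene lists with the most UMIs or with intervals off 0. Some genes under this rule are not reported here. The comparison and the lists were chosen with earlier results of these data known. Transcript lengths came from GENCODE on GRCm38, start sites from RefSeq (GRCm38.p6), and copies were aligned with BLAST 2.17.0. Steps were tested on simulated data. Alternatives changed scaling, filter, cell weights, depth and the cells included. Tools were Python 3.11.15, numpy 2.4.6, scipy 1.17.1, scanpy 1.11.5, R 4.3.3, edgeR 4.0.16 (TMM factors) and DESeq2 1.42.0 (size factors).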

Additional observations from a re-analysis of the deposited data

Results flagged for a closer look

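Several results went opposite ways in the 2 cell types of the same libraries, with counting intervals on opposite sides of 0 in OPCs and oligodendrocytes. With 1 library per origin the difference between the cell types was not tested. Below 0 in OPCs but above 0 in oligodendrocytes were Cldn11 (0.14), Cnp (0.04) and Hapln2 (0.38). The summed mature oligodendrocyte genes had a log2 ratio of −0.82 in OPCs and 0.17 in oligodendrocytes, and the summed OPC markers 0.28 and −0.72.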

How the results depend on the processing

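All 30 genes ranked highest or lowest kept their sign in every alternative in which they could be computed, and 17 stayed past 2-fold in all of them. Of 328 other values under an alternative, 303 stayed within the interval of the main value, or within 1.5 times for a count. None changed direction where that interval lay off 0. For summed UMIs and shares it was the counting interval. For a list median it came from the ranked log2 ratios of the members, so that it covers their spread and not counting error. The numbers past 2-fold, 140 higher and 164 lower, became 1460 and 3053 with no filter beyond 1 UMI, 26 and 71 with at least 200 UMIs, 66 and 84 with cells thinned to 1000 UMIs, and 99 and 220 with TMM factors, where the median of all genes was −0.04 (99 and 219 with size factors). Without OPCs over 5% ribosomal protein UMIs, an alternative chosen after seeing the data, 107 were lower. The summed mature oligodendrocyte ratio, −0.82, was −0.89 with TMM or size factors, −0.86 with totals leaving out mitochondrial, ribosomal protein and mature genes, −0.70 thinned, −0.68 as a mean over cells, −0.49 without the 10% of OPCs highest in these genes and −0.50 without the 6% highest doublet scores; the median of that list was −0.63 and −0.59 under the last 2. The ribosomal protein median was −0.51 as a mean over cells, −0.39 without OPCs over 5% and −0.48 by length (also chosen after seeing the data), oxidative phosphorylation −0.21 and −0.25 in the latter 2, and matrix and adhesion 0.19 thinned and 0.18 by length. The cell cycle median, 0.37, was −0.30 with no filter, the opposite sign. With at most 10% mitochondrial counts OPCs were 16.9% of control dOLCs. Where no construction shows it, the cause was not tested. Depth in 121 control vOPCs limited most genes, with a median interval width of 1.26 log2 units. No paired analysis was possible because each origin had 1 library.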

Other observations

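Among genes of the mitochondrial genome the summed log2 ratio was 0.05, but members differed. mt-Atp8 was at 324 and 146 CPM in control vOPCs and control dOPCs (log2 ratio 1.15, 0.85 to 1.44) and had 1.01 in oligodendrocytes of the same libraries, and mt-Nd3 had 0.76 in both cell types. mt-Co3, among the most abundant, had −0.08 in OPCs.

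Glycolysis genes went both ways. Pgk1 was at 48.1 and 20.6 CPM (1.23) and Eno1 at 768 and 553 (0.47), whereas Tpi1 was at 65.9 and 128 (−0.96), Aldoa had −0.43 and Gapdh −0.40. Il33, an alarmin of oligodendrocytes, was at 70.9 and 147 CPM (−1.05), and Serpina3n, a gene of reactive glia, at 70.9 and 40.4 (0.81). The noncoding RNA Neat1 was at 43.1 CPM in control vOPCs, 86.8 in control dOPCs and 15.8 in ectopic OPCs.

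Polr2f, a neighbour of Sox10, was at 269 CPM in control vOPCs, 194 in control dOPCs and 517 in ectopic OPCs. Nkx2-1, a ventral patterning gene, had 0 UMIs in both control OPC sums and 32 in ectopic OPCs.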
